A study of Mus musculus with 48 samples.

Results

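Imprinted genes are read mainly from the copy inherited from one parent, and many of them set the pace of growth before and after birth. A set of 10 such genes was followed here through the first weeks of life in the mouse small intestine: H19, Igf2, Igf2r, Dlk1, Meg3, Plagl1, Peg3, Mest, Cdkn1c and Grb10. They were chosen by symbol with earlier results of these data known, and each of the 10 symbols matched 1 identifier among 54532 genes. All 10 were among the 21986 genes that passed the filter on low counts.

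The series sequenced total RNA of wild-type C57Bl/6J mice of both sexes and describes the tissue as full-thickness bowel wall. Smooth muscle markers, given below, were low beside epithelial ones. The ages were postnatal day 0, 2, 4, 6 and 8 and postnatal week 2, 3 and 4. Each sample was a 2 cm piece of duodenum, the first stretch of small intestine, or of ileum, the last. The animals received no treatment, were left with their mother up to day 21 and were given chow from then on, and the labels give their housing as standard germ-free. The labels number 3 samples in each of 16 groups and do not say whether same-numbered samples came from 1 animal, so p-values measure the spread between these samples.

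The paternally expressed Igf2 encodes a fetal growth factor, and the maternally expressed Igf2r encodes the receptor that carries this factor to lysosomes. H19 is a maternally expressed noncoding RNA that shares enhancers with its neighbour Igf2, and a control region bound by CTCF on the maternal copy decides which of them is read. Dlk1 and Meg3 form a similar pair on another chromosome, with Dlk1 read from the paternal copy and the noncoding Meg3 from the maternal copy. Plagl1 is a zinc finger transcription factor known to act on other genes of this network. Peg3, also a zinc finger protein, and Mest, a hydrolase-fold protein, are read from the paternal copy, whereas Cdkn1c, an inhibitor of cyclin-dependent kinases, and Grb10, an adaptor that dampens insulin and IGF receptor signalling, are maternal in most tissues. The counts do not separate the parental copies.

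Before the results, 2 libraries need mention. Pdx1 marks the upper gut, and samples 1 and 2 of duodenum day 6 had 11.1 and 11.75 CPM of it, whereas the library labelled sample 3 had 0.115. The reverse held in the ileum, with 0.0872 and 0.421 CPM in samples 1 and 2 and 14.6 CPM in the library labelled sample 3. Among the other samples Pdx1 had a median of 14.1 CPM in the duodenum and 0.277 CPM in the ileum, but the regions overlapped. Duodenum week 4 sample 2, day 0 sample 1 and week 2 sample 2 had 1.81, 2.42 and 3.99 CPM, and ileum day 0 sample 2 and week 4 samples 3 and 1 had 6.53, 2.92 and 2.23 CPM. Within a single age the regions thus overlapped at day 0 and at week 4. These 6 were kept, and fits without each of them are among those without 1 sample. Such fits leave out only 1 of them at a time. CPM is counts per 1000000 counts of a library after TMM scaling (trimmed mean of M-values). The members followed the same exchange, since Meg3 stood at 186.7 CPM in the library labelled duodenum and 17.9 CPM in the one labelled ileum. Both libraries were left out, so day 6 has 2 samples per region and 46 of 48 samples enter the values below. Their total counts ran from 16824021 to 65042327. The Y-linked gene Ddx3y exceeded 1 CPM in 4, 4, 2, 0, 0, 2, 4 and 0 samples at the 8 ages in order, so sex was not balanced over age and its part in the age differences was not tested.

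Several of the members host microRNAs, which were not measured here. The mature sequences from H19, Igf2 and Mest are shown because these are the host RNAs that dropped furthest, and the seeds identify the products made from them. They come from RefSeq on GRCm38.p6, 5′ to 3′, with the seed (bases 2 to 8) in capitals.
mmu-miR-675-5p (H19): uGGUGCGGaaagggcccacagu
mmu-miR-675-3p (H19): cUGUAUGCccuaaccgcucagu
mmu-miR-483-5p (Igf2): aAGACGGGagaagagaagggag
mmu-miR-483-3p (Igf2): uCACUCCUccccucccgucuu
mmu-miR-335-5p (Mest): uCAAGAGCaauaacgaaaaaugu
mmu-miR-335-3p (Mest): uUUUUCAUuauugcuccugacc
The 6 sequences carry 6 different seeds. The miR-675 sequences lie within H19 on chromosome 7, the 5p arm at 142577112 to 142577133 on the minus strand, and the host RNA is the member with the steepest descent below.

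Of the members, 8 have a promoter window in the RefSeq table, 15 windows in all, each reaching from 250 bases before a transcript start to 50 after. These were searched on both strands for GGGGCCCC, the core bound by PLAGL1, because Plagl1 itself had the sharpest fall at the age of weaning. The motif was found in the Peg3 window alone, against 1.08% of 32851 windows of all genes. The 250 bases before the Peg3 start (GRCm38.p6, chr7:6730420-6730669, minus strand) are shown with the match, which begins 201 bases before the start, in capitals.
Peg3: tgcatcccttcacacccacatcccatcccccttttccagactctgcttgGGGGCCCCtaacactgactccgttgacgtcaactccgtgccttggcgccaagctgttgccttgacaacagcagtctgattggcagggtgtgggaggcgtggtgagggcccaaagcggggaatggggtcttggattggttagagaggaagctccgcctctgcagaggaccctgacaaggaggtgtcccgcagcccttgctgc
A TATAAA motif occurred in a Meg3 window and in no other of the 15, against 13.6% of all windows. The Meg3 bases (GRCm38.p6, chr12:109540746-109540995, plus strand) show it on both strands, in capitals, from 29 bases before the start.
Meg3: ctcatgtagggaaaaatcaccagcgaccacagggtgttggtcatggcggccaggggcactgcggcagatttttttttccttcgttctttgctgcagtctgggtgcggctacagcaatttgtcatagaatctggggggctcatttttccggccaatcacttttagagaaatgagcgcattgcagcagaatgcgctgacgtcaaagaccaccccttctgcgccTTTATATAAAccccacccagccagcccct
The E2F letters TTTNGCGC were in none of the 15 windows (1.38% of all windows), and the CTCF core GGNGGCAG was in a window of Grb10 and of Igf2 (12.6% of all). A match of letters describes the sequence only.

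All 10 genes fell between birth and week 4 in both regions. By edgeR's quasi-likelihood test with adjustment over all genes, 10 of 10 were called lower in the duodenum, where 20.1% of all genes were called lower, and 10 of 10 in the ileum, where 20.4% were. The median log2 fold change of the members was -5.92 in the duodenum and -5.34 in the ileum, beside -0.02 and 0.08 over all genes tested. In each region and for each member, every week 4 sample lay below every day 0 sample. The share of all genes that separated in this way is not given here. Removing any single sample, and each of the other settings tried, left 10 of 10 called.

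**Figure D1:**
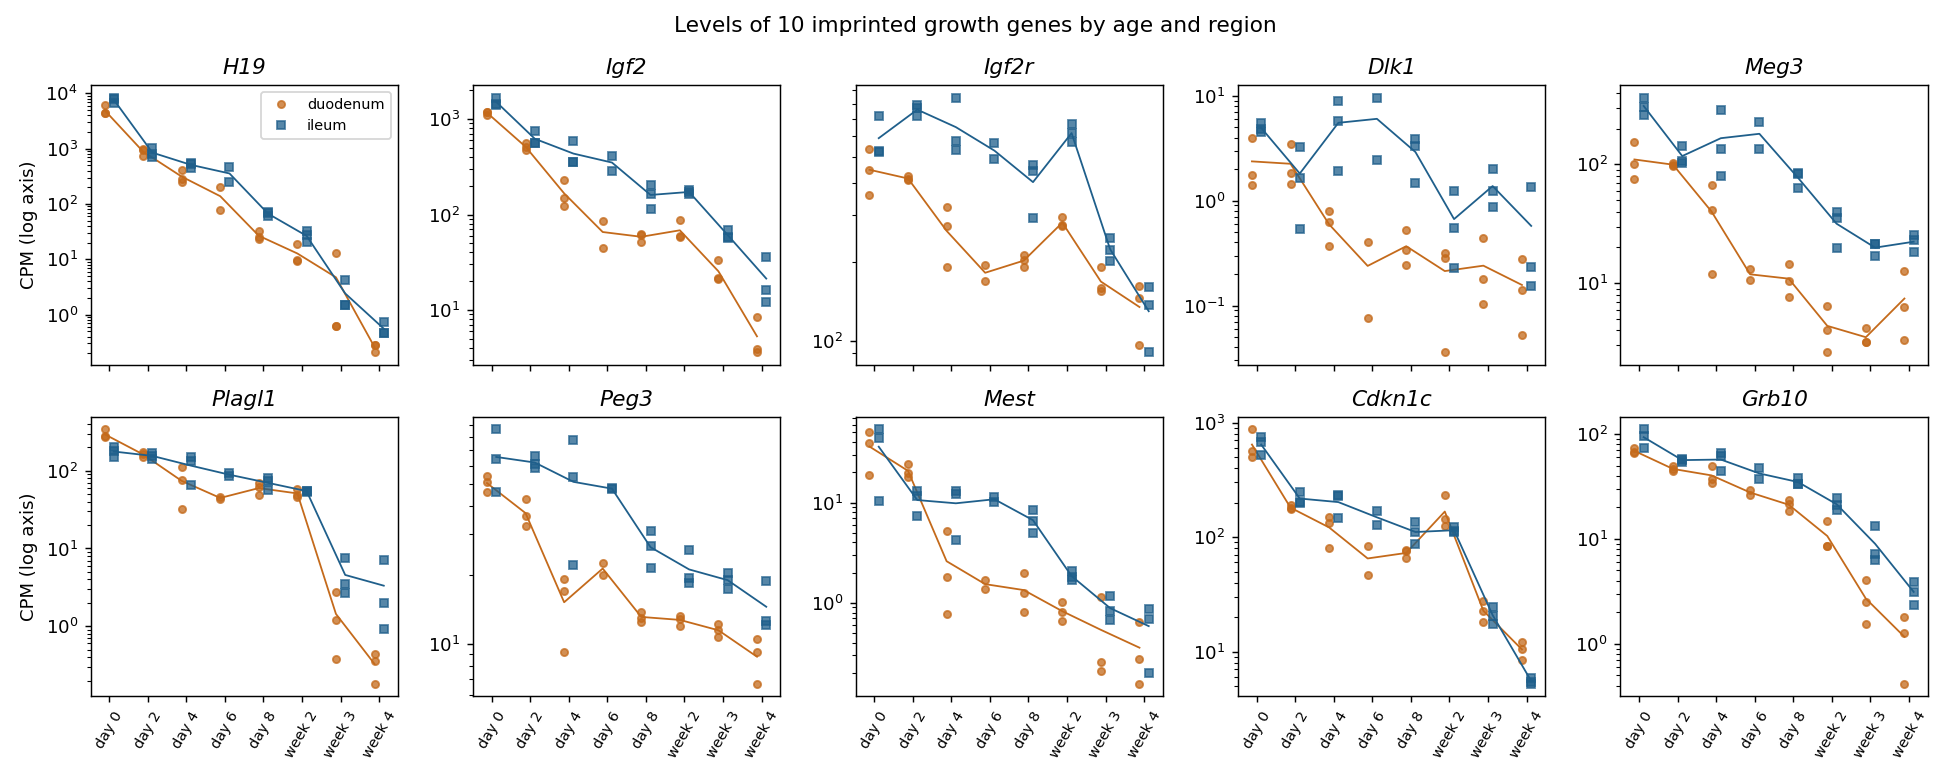
Level of each gene in CPM (log axis) in every sample used, by age, with circles for duodenum, squares for ileum and lines through the group means. H19 runs from 4440 or more at day 0 to under 1 CPM at week 4 in both regions, whereas Igf2r stays above 90 CPM at week 4.

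H19 (chromosome 7, 142575529 to 142578143, minus strand, GRCm38) was the most abundant member at birth, also when counted per kilobase. Its 3 duodenum samples held 4442, 4440 and 6040 CPM at day 0, and its ileum samples held 7976, 6740 and 8360 CPM. At week 4 the duodenum samples held 0.287, 0.278 and 0.212 CPM and the ileum samples 0.466, 0.465 and 0.735 CPM. All 6 older samples thus lay under 1 CPM, far below the newborn ones. On the log2 scale the duodenum changed by -14.19, with a standard error (SE) of 0.95 and an edgeR adjusted p of 4.5e-14, and the ileum by -13.8, with an SE of 0.94 and an edgeR adjusted p of 5.3e-14. Much of the loss came within 2 days, since the day 2 mean was 17.8% of the day 0 mean in the duodenum and 11.02% in the ileum. From day 4 on, all group means stayed under 10% of day 0.

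Igf2 (chromosome 7, 142650766 to 142666816) lies next to H19 and fell less. Its duodenum samples went from 1190, 1113 and 1191 CPM at day 0 to 3.86, 8.37 and 3.64 CPM at week 4. Its ileum samples held 1677, 1418 and 1442 CPM at day 0 and 35.83, 12.04 and 16.1 CPM at week 4. The ileum samples kept more of the growth factor's RNA than any duodenum sample at week 4. The log2 fold change was -7.78 (SE 0.41, edgeR adjusted p = 7.5e-18) in the duodenum and -6.15 (SE 0.38, edgeR adjusted p = 4.4e-16) in the ileum. The Igf2 mean was not lower at week 2 than at day 8, at 58.4 ± 5.66 and 68.3 ± 16.4 CPM (SD, n = 3) in the duodenum and 160.3 ± 43.2 and 172.4 ± 9.63 CPM (SD, n = 3) in the ileum.

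The balance of this neighbouring pair therefore turned over. Per kilobase of exon, the log2 ratio of H19 to Igf2 averaged 3.30 ± 0.23 (SD, n = 3) at day 0 in the duodenum and 3.56 ± 0.17 (SD, n = 3) in the ileum. It was 0.07 ± 0.23 and -0.01 ± 0.33 (SD, n = 3) at day 8, where the levels differed by less than the spread of the samples. At week 2 it was -1.26 ± 0.26 and -1.51 ± 0.38 (SD, n = 3), the first age at which Igf2 exceeded H19 beyond that spread, and at week 4 it was -2.75 ± 0.60 and -3.77 ± 0.96 (SD, n = 3). In CPM without the length term each ratio is lower by 1.22. These log2 ratios used a prior count of 2, which pulls the lowest H19 values upward.

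The receptor gene Igf2r (chromosome 17, 12682406 to 12769664) changed least in the duodenum. Its duodenum samples held 537.8, 447.6 and 358.3 CPM at day 0 and 96.0, 161.5 and 145.6 CPM at week 4. The ileum samples held 719.4, 528.6 and 524.5 CPM at day 0 and 137.0, 160.8 and 90.7 CPM at week 4. These are log2 fold changes of -1.74 (SE 0.21) and -2.19 (SE 0.22). Igf2r never fell below 10% of its day 0 mean in either region, and in the ileum the week 2 mean was still 104.6% of it. Counted per kilobase of exon, Igf2r was the most abundant member at week 4, at 14.4 (duodenum) and 13.9 (ileum) CPM per kilobase. At day 0 that place belonged to H19, at 2022 and 3127 CPM per kilobase, followed by Cdkn1c at 315.0 and 315.1 and Igf2 at 203.4 and 264.2.

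Grb10 (chromosome 11, 11930508 to 12038683), the brake on the receptors of this pathway, fell along with the growth factor. It held 66.3, 73.5 and 67.4 CPM in the duodenum at day 0 and 0.417, 1.81 and 1.27 CPM at week 4. In the ileum it held 72.8, 96.7 and 110.6 CPM and then 2.33, 3.91 and 3.14 CPM. Both groups of older samples lay far below the newborn ones, with log2 fold changes of -5.90 (SE 0.36) and -4.88 (SE 0.34). Its decline was spread over the whole period, with the mean under 50% of day 0 for good from day 6 and under 10% from week 3 in both regions.

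Cdkn1c (chromosome 7, 143458339 to 143461050), which restrains the cell cycle, held 496.9, 559.8 and 870.3 CPM in the duodenum at day 0 and 8.47, 10.6 and 12.2 CPM at week 4. In the ileum it held 669.6, 515.9 and 741.7 CPM and then 5.24, 5.46 and 5.88 CPM. The drop of -6.86 (SE 0.32) on the log2 scale in the ileum was the second steepest there, after H19. Its course had 2 phases, because by day 2 the mean had reached 28.1% (duodenum) and 33.8% (ileum) of day 0, and it then stayed above 10% until week 2.

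Plagl1 (chromosome 10, 13060504 to 13131694) showed the sharpest step near weaning. In the duodenum its samples held 339.7, 276.3 and 269.9 CPM at day 0, 58.6, 45.6 and 49.0 CPM at week 2. At week 3 they held 2.72, 0.384 and 1.21 CPM. In the ileum they held 148.7, 203.6 and 178.0 CPM at day 0, 55.6, 55.0 and 53.7 CPM at week 2, with 7.52, 2.70 and 3.47 CPM left at week 3. The week 2 and week 3 samples did not overlap in either region. From day 0 to week 4 the log2 fold change was -9.82 (SE 0.66) in the duodenum and -5.80 (SE 0.53) in the ileum.

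Mest (chromosome 6, 30723547 to 30748465) ran from 18.7, 39.4 and 50.6 CPM at day 0 to 0.156, 0.278 and 0.637 CPM at week 4 in the duodenum. In the ileum it ran from 10.4, 44.3 and 53.6 CPM to 0.874, 0.683 and 0.200 CPM. Sample 1 was the lowest of the newborn samples in both regions. The log2 fold changes were -6.72 (SE 0.71) and -5.88 (SE 0.69). Peg3 (chromosome 7, 6703892 to 6730431) fell less, with log2 fold changes of -2.52 (SE 0.28) and -2.18 (SE 0.27), and kept 17.5% and 22.2% of its day 0 mean at week 4.

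Meg3 (chromosome 12, 109541001 to 109571726) held 101.0, 153.6 and 75.3 CPM in the duodenum at day 0 and 3.34, 12.7 and 6.30 CPM at week 4. In the ileum it held 305.9, 364.5 and 259.7 CPM and then 22.9, 25.7 and 18.4 CPM. Its lowest mean was at week 3 in both regions, at 3.51 ± 0.57 and 19.9 ± 2.63 CPM (SD, n = 3), and the difference from week 3 to week 4 did not pass the test in either with all samples. The week 4 fold changes against day 0 were -3.89 (SE 0.49) and -3.79 (SE 0.49) on the log2 scale. Its partner Dlk1 (chromosome 12, 109452823 to 109463336), a Notch-like membrane protein gene, was the scarcest member per kilobase at day 0 and at week 4. It held 1.41, 1.78 and 3.92 CPM in the duodenum and 4.47, 5.51 and 4.85 CPM in the ileum at day 0, with log2 fold changes of -3.904 (SE 0.83) and -3.23 (SE 0.78) by week 4. The log2 ratio of Meg3 to Dlk1 was 5.58 ± 1.16 at day 0 and 5.05 ± 0.16 at week 4 in the duodenum (SD, n = 3), and 5.95 ± 0.19 and 5.64 ± 1.69 in the ileum (SD, n = 3). The values at these ages differed by less than the spread of the samples, and in between the ratio was lower at some ages only. It was 4.81 ± 0.51 at day 8 in the ileum and 3.72 ± 0.88 (duodenum) and 3.87 ± 0.77 (ileum) at week 3 (SD, n = 3). In the ileum it was 6.27 ± 1.03 at day 2 and 5.65 ± 0.62 at week 2, and in the duodenum 5.68 ± 0.91 at day 4 (SD, n = 3). The prior count of 2 was used here too and pulls low Dlk1 values upward. These are differences of CPM on the log2 scale, and they were not tested.

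**Figure D2:**
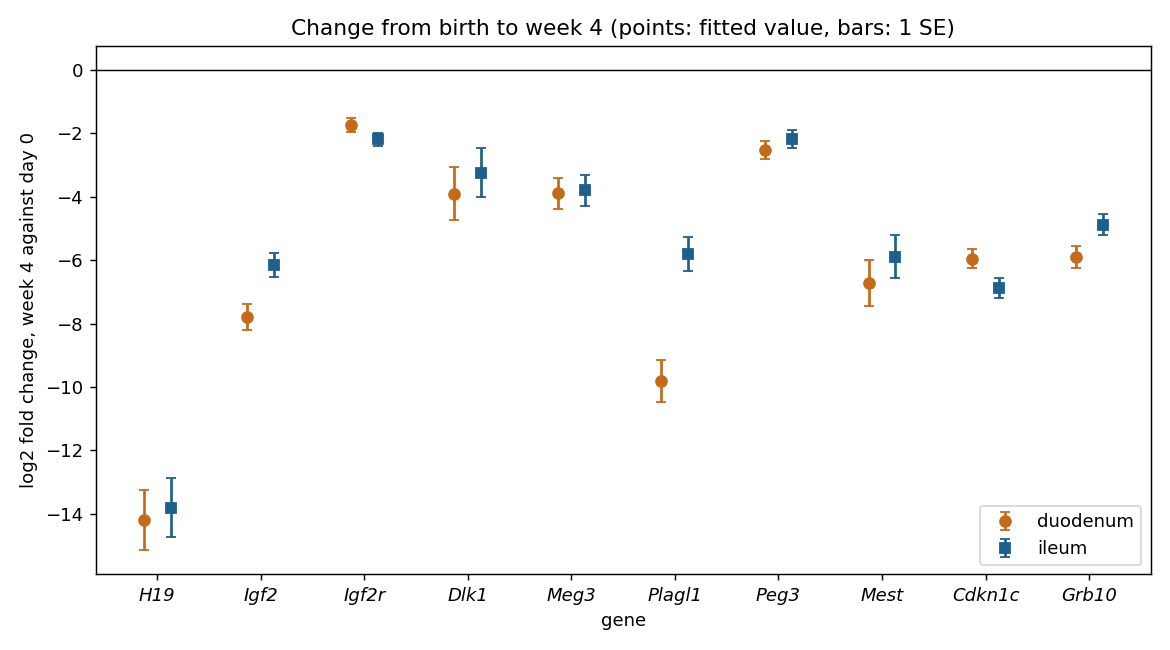
Log2 fold change from day 0 to week 4 for each gene (points: fitted value; bars: 1 SE; circles duodenum, squares ileum). All 20 points lie below 0, from H19 at -14.19 to Igf2r at -1.74 in the duodenum.

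In RNA of mixed cells, fewer cells of a type and less RNA per cell cannot be told apart. Over all genes, 20.1% (duodenum) and 20.4% (ileum) were called lower at week 4 than at day 0. The shares called higher were 20.4% and 21.5%. The 5 endothelial markers (Pecam1, Cdh5, Kdr, Lyve1, Tek) moved the same way as the members: 5 of 5 fell from day 0 to week 4 in the duodenum and 4 of 5 in the ileum. Their summed level ran from 96.6 to 185.4 CPM at day 0 and from 12.2 to 13.3 CPM at week 4 in the duodenum, and from 48.1 to 191.2 and from 18.0 to 45.2 CPM in the ileum. Of 8 mesenchymal markers, 3 fell in the duodenum, where their sum went from 115.9 to 204.0 CPM at birth to 23.3 to 86.3 CPM at week 4. In the ileum 2 of the 8 fell and 1 rose, with sums of 224.7 to 333.5 and 105.8 to 240.8 CPM. The 6 epithelial markers rose, 6 of 6 in the duodenum and 5 of 6 in the ileum. Of 6 smooth muscle markers 1 rose in the duodenum, and no other was called in either region. Their day 0 sums were 17.5 to 21.6 CPM in the duodenum and 62.8 to 90.7 CPM in the ileum. The epithelial sums were 3334 to 3542 and 3059 to 3772 CPM. How much muscle each piece held was not tested. Of 5 immune markers, 3 rose and 2 fell in the duodenum, and 3 rose and 1 fell in the ileum. Of 4 liver markers (Alb, Ttr, Serpina1a, Cyp2e1), 2 fell and 1 rose in each region, and their sum was 83.4 to 144.3 CPM at day 0 and 2.89 to 6.02 CPM at week 4 in the duodenum, with 90.2 to 174.5 and 1.28 to 2.605 CPM in the ileum. Of 6 markers of enteric neurons and glia, 2 fell in the duodenum, with sums of 30.9 to 44.3 and 7.99 to 11.8 CPM, and 1 fell in the ileum, with sums of 49.1 to 76.5 and 14.97 to 32.6 CPM. Of 6 pancreatic acinar markers 1 fell in each region and 1 rose in the duodenum. In the ileum 3 of them (Cela2a, Ctrb1, Pnlip) were at 0 at week 4. Of 4 skeletal muscle markers tested, 2 rose in each region. No endothelial, mesenchymal, epithelial or liver marker was at 0 at day 0 or week 4. On the log2 scale the median member changed by -5.92 (duodenum) and -5.34 (ileum). In the same order the median marker changed by -3.44 and -3.56 for endothelium and by -2.63 and -3.95 for liver. It changed by -1.26 and -1.21 for neurons and glia, -1.03 and -0.89 for mesenchyme, and -0.52 and -3.44 for pancreatic acinar cells. The medians of epithelium (1.15 and 1.25), immune cells (1.74 and 4.95), smooth muscle (0.70 and 0.61) and skeletal muscle (1.58 and 1.67) were above 0. The part of these shifts in the members' decline was not tested.

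The age effect over all 8 ages was called for 10 of 10 members in the duodenum, where 67.4% of all genes were called, and for 10 of 10 in the ileum, where 58.7% were. The course can be divided into 4 steps, day 0 to day 8, day 8 to week 2, week 2 to week 3 and week 3 to week 4. By day 8 all 10 members had fallen in the duodenum, where 19.2% of genes were called lower, with H19 at -7.55 (SE 0.72), Mest at -4.75 (SE 0.61), Igf2 at -4.32 (SE 0.34), Meg3 at -3.33 (SE 0.48) and Cdkn1c at -3.15 (SE 0.26). In the ileum 8 of 10 fell, where 10.7% of genes were called lower. The other members were Igf2r at -0.56 (SE 0.21, edgeR adjusted p = 0.0544; 0.0420 without ileum day 8 sample 2) and Dlk1 at -0.77 (SE 0.66, edgeR adjusted p = 0.457). The ileal call of Plagl1 at -1.34 (SE 0.43, edgeR adjusted p = 0.0233) was lost without ileum day 0 sample 2 (adjusted p = 0.0700) or 3 (0.0511) and without ileum day 8 sample 1 (0.113) or 3 (0.0554).

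From day 8 to week 2 few members were called. In the duodenum Cdkn1c rose by 1.20 (SE 0.24, edgeR adjusted p = 0.00139), 1 of 10 members where 6.75% of genes were called higher. Grb10 fell by 0.99 (SE 0.28, edgeR adjusted p = 0.0147), 1 of 10 where 8.93% were called lower. The rise took Cdkn1c from 76.2, 65.2 and 76.5 CPM to 232.9, 123.7 and 144.3 CPM, with no overlap. The Grb10 call was lost without duodenum day 8 sample 2 (adjusted p = 0.0592) and without week 2 sample 1 (0.112) or 3 (0.0766). In the ileum, where 2.47% of genes were called lower, Mest was the single member called, at -1.85 (SE 0.56, edgeR adjusted p = 0.0406). Without any one of the 6 ileum samples of those ages its adjusted p ran from 0.0642 to 0.139. Cdkn1c was at 110.6 ± 23.1 and 114.7 ± 6.78 CPM (SD, n = 3) in the ileum over the same interval, a log2 difference of 0.05 (SE 0.24).

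From week 2 to week 3, the interval that ends at the age of weaning, 5 members fell in the duodenum (Igf2, Igf2r, Plagl1, Cdkn1c and Grb10), where 10.6% of genes were called lower. The same 5 and H19 fell in the ileum, where 13.9% were. In duodenum and ileum in turn, the log2 fold changes were -5.06 (SE 0.52) and -3.57 (SE 0.48) for Plagl1 and -2.88 (SE 0.26) and -2.46 (SE 0.26) for Cdkn1c. Those of Igf2 were closer, at -1.43 (SE 0.31) and -1.499 (SE 0.31). H19 fell by 3.43 (SE 0.63, edgeR adjusted p = 5.9e-05) in the ileum and stood at -1.38 (SE 0.57, edgeR adjusted p = 0.0912) in the duodenum. The calls of these 5 and 6 members held without any single sample.

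Markers of several cell types moved over the same interval. In the ileum the summed immune markers ran from 124.2 to 151.5 CPM at week 2 and from 24.4 to 26.9 CPM at week 3, those of neurons and glia from 112.1 to 121.9 and from 15.3 to 22.5 CPM, and those of liver from 60.5 to 76.5 and from 2.03 to 5.12 CPM. The epithelial sum ran from 3735 to 4103 and then from 8490 to 11270 CPM. The duodenum had the same directions without overlap, with the immune sum at 93.0 to 143.3 and 28.9 to 35.1 CPM and the epithelial sum at 3938 to 4270 and 5869 to 6857 CPM. Their part in the members' steps was not tested.

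The duodenal H19 value turned on 1 sample. Without duodenum week 3 sample 1 the step from week 2 was -4.35 (SE 0.45, edgeR adjusted p = 2.8e-09), and with sample number as a replicate block it was -1.65 (edgeR adjusted p = 0.0451). That sample held 12.9 CPM of H19 against 0.628 and 0.616 in the other samples of its group, and it was also the highest of the group in Igf2 (33.6 against 21.2 and 21.4 CPM), Plagl1 (2.72 against 0.384 and 1.21 CPM), Mest and Grb10. From week 3 to week 4, 5 members fell in the duodenum, where 4.96% of genes were called lower: H19 at -4.20 (SE 0.77), Igf2 at -2.26 (SE 0.33), Plagl1 at -2.23 (SE 0.64), Cdkn1c at -1.13 (SE 0.25) and Grb10 at -1.25 (SE 0.33). Without that sample 2 members were still called. H19 then stood at -1.23 (adjusted p = 0.163), Plagl1 at -1.35 (0.249) and Grb10 at -0.81 (0.157). Plagl1 also lost its call without duodenum week 4 sample 1 (0.0855) or 3 (0.0512), and Grb10 without week 4 sample 1 (0.0909).

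In the ileum 4 members fell from week 3 to week 4, where 7.81% of genes were called lower. These were Igf2 at -1.52 (SE 0.31), Igf2r at -0.78 (SE 0.21), Cdkn1c at -1.91 (SE 0.26) and Grb10 at -1.51 (SE 0.31). The Igf2r call was lost without ileum week 4 sample 3 (adjusted p = 0.0603). Dlk1, Meg3, Peg3 and Mest were called at neither of the steps after week 2 in either region. For Meg3 the step from week 3 to week 4 was 1.07 (SE 0.47, edgeR adjusted p = 0.132; 0.0465 without duodenum week 4 sample 1) in the duodenum and 0.17 (SE 0.45, edgeR adjusted p = 0.856) in the ileum.

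**Figure D3:**
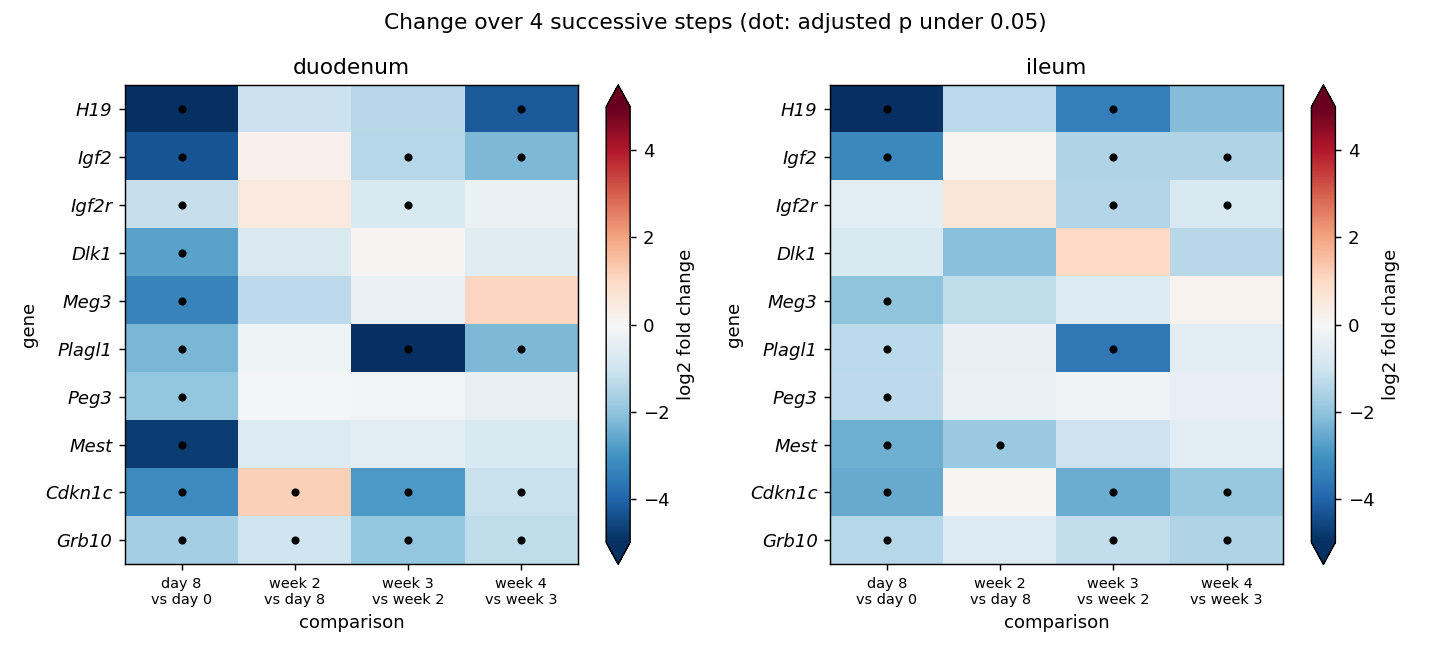
Log2 fold change of each gene (rows) over 4 successive steps (columns) in duodenum and ileum; colour gives the change, cut at 5 either way, and dots mark an adjusted p under 0.05. The first column has 10 dots for the duodenum and 8 for the ileum, and the 2 right-hand columns have dots for H19, Igf2, Igf2r, Plagl1, Cdkn1c and Grb10 but not for Dlk1, Meg3, Peg3 or Mest.

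Between the regions, the members were higher in the ileum on average over the 8 ages. By edgeR, 9 of 10 were called higher in the ileum, where 31.9% of all genes were. The log2 differences of ileum over duodenum were 2.18 (SE 0.17) for Meg3, 2.17 (SE 0.28) for Dlk1, 1.31 (SE 0.11) for Igf2 and 1.08 (SE 0.22) for Mest. Peg3, Grb10, Igf2r, Plagl1 and H19 followed at 0.90, 0.84, 0.83, 0.75 and 0.63. Cdkn1c stood at 0.15 (SE 0.09, edgeR adjusted p = 0.134), and its adjusted p was 0.0343, 0.0422 and 0.0497 without duodenum day 0 sample 3, day 6 sample 2 and week 2 sample 1.

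The median member differed between the regions by 0.39 at day 0, 0.25 at day 2 and 1.35 at day 4 on the log2 scale, ileum over duodenum. Over all genes, the share called in either direction also went up, from 8.01% at day 2 to 26.6% at day 4. At day 0 Meg3 alone was called higher in the ileum (1.497, SE 0.44, edgeR adjusted p = 0.0365), where 2.97% of genes were. That call was lost in fits without ileum sample 1, 2 or 3 or duodenum sample 1 or 3 of day 0, with adjusted p from 0.0540 to 0.176. At day 2 Igf2r alone was called (0.87, SE 0.21), beside 4.05% of genes. At day 4, 7 members were called higher in the ileum beside 11.6% of genes, at day 6 also 7 beside 17.8%, and at day 8, 8 beside 17.1%. At week 2, 3 and 4 the count was 5 beside 10.6%, 5 beside 7.28% and 5 beside 14.5% of genes. One call went the other way, Cdkn1c at week 4, at -0.91 (SE 0.26, edgeR adjusted p = 0.00954), where 13.9% of genes were called higher in the duodenum. Its duodenum samples held 8.47, 10.6 and 12.2 CPM, all above the ileum samples at 5.24, 5.46 and 5.88 CPM. Pdx1 overlapped between the regions at day 0 and week 4, as given above, which limits the regional values of those ages.

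Over the 8 ages 40 of 80 tests were called, 39 of them higher in the ileum. At single ages the share of all genes called, in either direction, ran from 6.1% (day 0) to 39.6% (day 8). Of the 40 calls, 27 were made in every fit without 1 sample. The 13 others were Meg3 at day 0 and week 4, Cdkn1c at day 4, 6 and 8, Mest at day 4, Peg3 at day 6, week 2 and week 4, Grb10 at day 8 and week 2, and Dlk1 and Plagl1 at week 3. Each lost its call without at least 1 sample of its own groups, with adjusted p from 0.0504 to 0.321. With the 2 exchanged-looking day 6 libraries put back under their labels, 21 of the 80 tests were called. The share of all genes called in that fit is not given here.

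The widest gap was at day 6. Meg3 held 13.04 and 10.71 CPM in the duodenum and 226.9 and 134.9 CPM in the ileum, a log2 difference of 3.93 (SE 0.60). Dlk1 held 0.402 and 0.0757 CPM in the duodenum and 9.60 and 2.46 CPM in the ileum, a log2 difference of 4.63 (SE 0.98). Mest (2.81, SE 0.71) and Igf2 (2.42, SE 0.39) came next. The ileum samples lay above the duodenum samples without overlap for both Meg3 and Dlk1, with only 2 samples per region at that age.

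**Figure D4:**
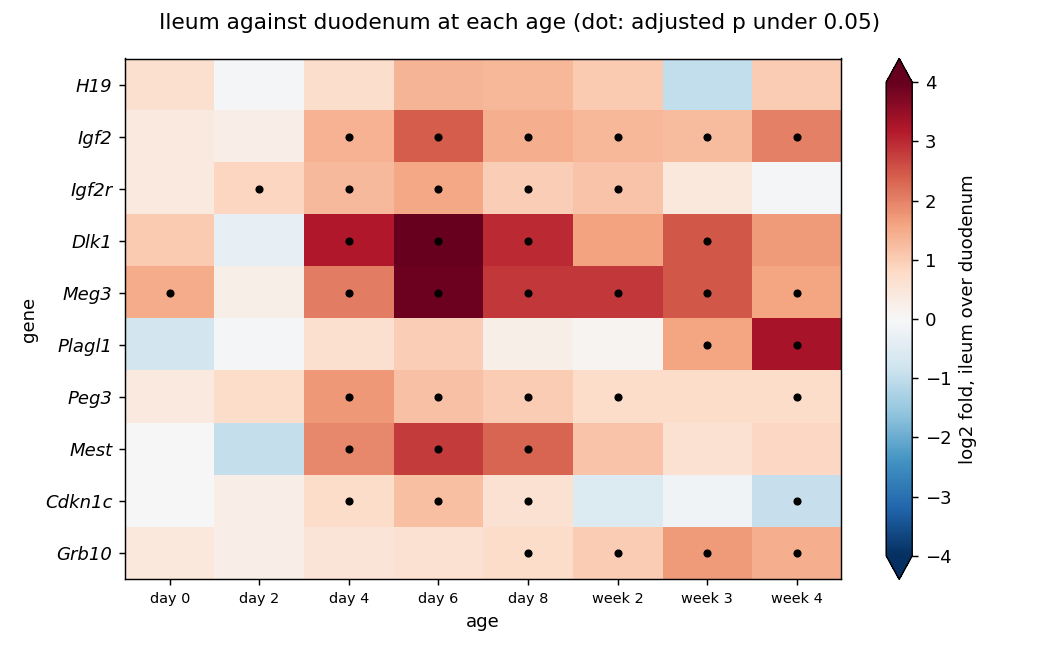
Log2 difference of ileum over duodenum for each gene (rows) at each age (columns), cut at 4 either way, with dots at an adjusted p under 0.05. The dots gather from day 4 on, Dlk1 and Meg3 are darkest at day 6 (4.63 and 3.93), and Plagl1 is darkest at week 4 (3.28).

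The 2 regions did not change in parallel. The interaction of region and age was called by edgeR for 7 of 10 members, where 22.4% of all genes were called: Cdkn1c, Igf2r, Meg3, Plagl1, Igf2, Mest and Dlk1. With the 2 day 6 libraries put back under their labels it was called for 1 member, so this count rests on leaving them out. The call of Dlk1 (edgeR adjusted p = 0.0236) was lost in fits without duodenum day 2 sample 1 (0.0614), duodenum day 6 sample 2 (0.0583), ileum day 2 sample 3 (0.0535) or ileum day 6 sample 1 (0.0653). H19, Peg3 and Grb10 were not called (edgeR adjusted p = 0.241, 0.112 and 0.0634). H19 had an adjusted p of 0.0465 without duodenum week 3 sample 3, and Peg3 one of 0.00338 without ileum day 4 sample 2. Grb10 had an adjusted p of 0.00271 with the replicate block and values of 0.0175 to 0.0361 without duodenum week 2 sample 2, duodenum week 3 sample 1, duodenum week 4 sample 2 or ileum week 3 sample 3.

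The genes parted in different ways. Igf2r in the ileum stood at 128.4%, 110.2%, 89.6%, 68.0% and 104.6% of its day 0 mean from day 2 to week 2, whereas in the duodenum it stood at 92.6%, 58.5%, 40.5%, 45.1% and 62.9%. At week 4 the regional means were close, at 134.4 ± 34.2 CPM in the duodenum and 129.5 ± 35.6 CPM in the ileum (SD, n = 3). Plagl1 went the other way: no regional difference passed the test up to week 2, and at week 4 it was higher in the ileum by 3.28 (SE 0.64, edgeR adjusted p = 0.000348). Its duodenum samples then held 0.183, 0.445 and 0.354 CPM and its ileum samples 0.932, 2.02 and 7.02 CPM, so they did not overlap. The overlap of Pdx1 at week 4 limits these values of Igf2r and Plagl1 as well. Mest passed the test at day 4, 6 and 8 alone, with 6.67 ± 1.73 CPM in the ileum against 1.34 ± 0.58 CPM in the duodenum at day 8 (SD, n = 3).

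Mesenchymal markers differed between the regions as well, at birth already, where the sums of 224.7 to 333.5 CPM in the ileum lay above the 115.9 to 204.0 CPM of the duodenum. The sum of the 8 markers (Pdgfra, Pdgfrb, Col1a1, Col1a2, Col3a1, Dcn, Lum, Postn) had similar ranges at day 2, 128.4 to 168.8 CPM (duodenum) and 101.2 to 212.3 CPM (ileum). At day 6 it was 16.99 and 31.85 CPM in the duodenum and 260.0 and 731.7 CPM in the ileum, and at day 8 it ran from 24.4 to 68.3 and from 223.0 to 467.6 CPM. From day 0 to day 8, 4 of the 8 fell in the duodenum (median log2 fold change -1.79), where 19.2% of genes were called lower. In the ileum 0 of the 8 fell and 0 rose (median 0.49), where 10.7% of genes were called lower. Smooth muscle markers were split both at day 0, with sums of 17.5 to 21.6 CPM in the duodenum and 62.8 to 90.7 CPM in the ileum, and at day 8, with 4.68 to 7.38 and 31.3 to 81.7 CPM. The part of these marker differences in the regional differences of the members was not tested.

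Within groups, Meg3 and Dlk1 moved with the mesenchymal sum from sample to sample and the other members much less. Over the 46 samples, deviations from the group mean on the log2 scale correlated with those of the mesenchymal sum at Pearson r = 0.786 for Meg3 and 0.606 for Dlk1. For H19, Igf2, Igf2r, Plagl1 and Peg3 the same r was 0.0639, 0.0253, -0.177, -0.0177 and -0.0286, and for Mest, Cdkn1c and Grb10 it was 0.286, 0.284 and 0.194. Other members went more with other lists. With the epithelial sum r was -0.491 for Plagl1, -0.474 for Peg3 and 0.415 for Igf2, and with the endothelial sum it was -0.474 for Igf2r and 0.430 for Mest. The values in 1 sample share its library, scaling and piece of tissue, so these are descriptions. In duodenum day 4 sample 2, for example, Meg3 stood at 11.9 CPM against 41.2 and 67.1 CPM in the others of its group.

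**Figure D5:**
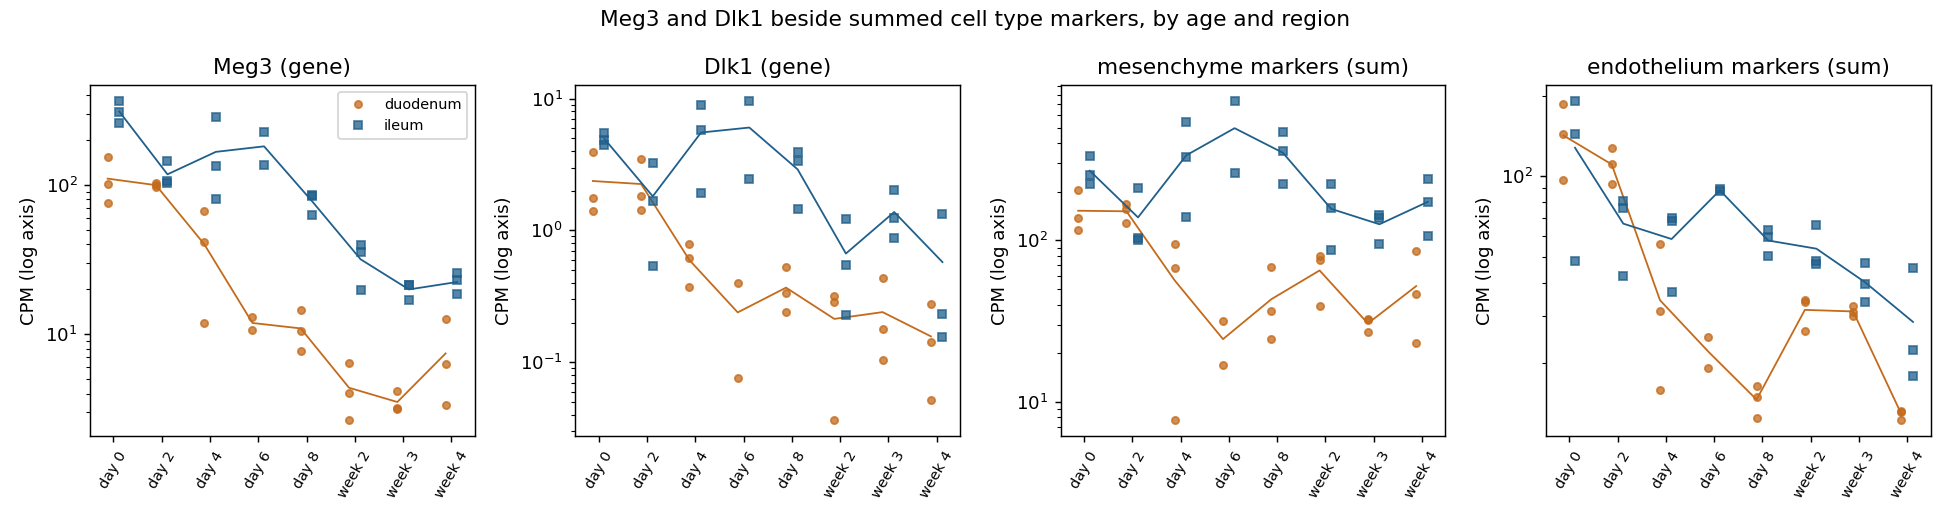
Meg3, Dlk1 and the summed CPM of 8 mesenchymal and 5 endothelial markers in every sample used, by age (log axes; circles duodenum, squares ileum, lines group means). At day 6 the ileum lies above the duodenum in all 4 panels, with mesenchymal sums of 260.0 and 731.7 against 16.99 and 31.85 CPM.

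The members resembled one another across samples. Over the 23 samples of a region, the median Pearson r between pairs of members was 0.843 (duodenum) and 0.866 (ileum), with age shared by all points. H19 and Igf2 had r = 0.961 and 0.971. The lowest value was 0.359, between Igf2r and Dlk1 in the ileum. Over the 16 group means, Igf2 lay closest to the mean of the other members (r = 0.980) and Dlk1 farthest (r = 0.822).

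Among 12406 other genes whose log2 CPM averaged 1 or more, the 5 whose 16 group means most resembled the members' mean profile were Igf2os (r = 0.982), Glb1 (0.969), Crtap (0.966), C1qtnf6 (0.965) and Npr3 (0.965). Igf2os is an antisense RNA at the Igf2 locus that shares 98 exon bases, 1.71% of the Igf2 exons, with it. Its mean level was 119.9 CPM in the duodenum and 199.4 CPM in the ileum at day 0 and 0.481 and 3.80 CPM at week 4. Glb1, which encodes a lysosomal beta-galactosidase, was abundant, at 884.3 and 1356 CPM at day 0 and 42.9 and 41.5 CPM at week 4. Crtap, a collagen-modifying protein gene, stayed lower, at 12.5 and 16.7 CPM and then 3.03 and 3.58 CPM.

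Several members share exon bases with another annotated gene. Igf2 shares 62.8% of its exon bases with the same-strand Gm49394, which stood at 1.52 and 0.748 CPM at day 0 in duodenum and ileum. Mest shares 23.1% with Copg2 on the opposite strand (41.6 and 40.4 CPM at day 0), and Cdkn1c shares 30.7% with the antisense Gm44732 (0.544 and 0.555 CPM). Whether counting used strand is not given in the sources used here, and without strand such reads cannot be told apart. Copg2 itself had log2 fold changes of 0.09 and -0.22 from day 0 to week 4 and was called in neither region.

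Other imprinted genes mostly moved the same way and some did not. Of 29 on a list chosen with earlier results of these data known, 28 were tested from day 0 to week 4. In the duodenum 17 fell and 4 rose, and in the ileum 15 fell and 3 rose, beside 20.1% and 20.4% of all genes called lower and 20.4% and 21.5% called higher. Their median log2 fold changes were -1.47 and -1.21, against -0.02 and 0.08 over all genes tested. Mirg, a noncoding RNA downstream of Meg3, fell in both, with log2 fold changes of -5.85 (SE 0.55) and -6.29 (SE 0.56). Peg10, a gene derived from a retrotransposon and needed in the placenta, held 5.26 ± 0.98 CPM at day 0 in the duodenum (SD, n = 3), and its week 4 samples together held 1 count. That is a 519.9-fold ratio with an exact 95% counting interval of 92.9 to 20570. In the ileum Peg10 fell by 4.19 (SE 0.63). Zdbf2 fell too, at -4.61 (SE 0.66) and -4.403 (SE 0.66). Dio3, which inactivates thyroid hormone, was scarce at day 0 (0.0702 ± 0.0648 and 0.375 ± 0.134 CPM, SD, n = 3) and had no counts at week 4, so in the ileum it was at least 8.01-fold lower and in the duodenum at least 3.03-fold lower, with 3 counts over the group as the floor.

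Ascl2 and Slc22a18 rose in both regions. Ascl2, a transcription factor gene of intestinal stem cells, had 0.335 ± 0.154 CPM at day 0 and 5.01 ± 1.86 CPM at week 4 in the duodenum (SD, n = 3), a log2 fold change of 3.81 (SE 0.39). The ileum had 0.390 ± 0.175 CPM and 1.55 ± 0.27 CPM (SD, n = 3), a log2 fold change of 1.99 (SE 0.41). Slc22a18, a transporter gene in the same chromosome region as Cdkn1c, rose by 2.05 (SE 0.20) and 1.403 (SE 0.20). Phlda2, of that region too, rose in the duodenum by 2.15 and stood at 0.73 (edgeR adjusted p = 0.511) in the ileum.

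Within the wider IGF axis, the receptor Igf1r stood at 0.00 and -0.12 on the log2 scale from day 0 to week 4 and was called in neither region. Of 17 axis genes, 8 fell and 1 rose in the duodenum, and 9 fell and 1 rose in the ileum, with medians of -1.32 and -0.93. Over all genes tested 20.1% and 20.4% fell, 20.4% and 21.5% rose, and the medians were -0.02 and 0.08. Igfals, which holds circulating IGFs in a stable complex, fell, at -5.14 (SE 0.37) and -6.45 (SE 0.44). Igfbp3, the main binding protein of that complex, fell as well, from means of 39.1 ± 15.1 (duodenum) and 46.6 ± 32.1 CPM (ileum) at day 0 to 2.03 ± 0.56 and 3.04 ± 1.63 CPM (SD, n = 3). The protease gene Pappa, which frees IGFs from binding proteins, fell, at -4.72 (SE 0.63) and -2.94 (SE 0.55). Ghr, the growth hormone receptor gene, fell, at -3.06 and -3.38. Igfbp6, which binds IGF2 preferentially, rose, from 0.0973 ± 0.105 (duodenum) and 0.526 ± 0.304 CPM (ileum) to 2.34 ± 1.47 and 5.98 ± 1.42 CPM (SD, n = 3).

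Regulators of fetal growth fell as well. Of 12 tested from a list of 13, 8 fell in the duodenum and the other 4 were not called. In the ileum 7 fell and E2f3 rose by 0.74. Over all genes tested 20.1% and 20.4% were called lower, and 20.4% and 21.5% higher. The medians of the list were -2.04 and -1.31, against -0.02 and 0.08 over all genes tested. With every list gene that had no week 4 counts set to its bound, the medians of all 4 lists stayed as given. Igf2bp1, an RNA-binding protein that attaches to Igf2 transcripts, held 29.3 ± 2.24 CPM at day 0 in the duodenum (SD, n = 3) and had no counts at week 4, at least 986.5-fold lower with 3 counts over the group as the floor. In the ileum it fell by 6.46 (SE 0.48). Mycn fell, at -2.73 (SE 0.22) and -3.75 (SE 0.24), as did Sox11, at -4.61 (SE 0.82) and -2.19 (SE 0.68). Afp, the fetal serum protein, fell, at -2.56 (SE 0.51) and -8.32 (SE 0.66), from 279.6 ± 172.9 and 2492 ± 1699 CPM at day 0 (SD, n = 3).

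Cell division genes did not share the decline. Of 16 tested, 12 rose in the duodenum and 5 in the ileum from day 0 to week 4, and the rest were not called. Over all genes 20.4% and 21.5% were called higher. The median log2 fold changes of the list were 0.81 and 0.56. Top2a, which untangles replicated DNA, rose, from 85.0 ± 9.50 (duodenum) and 62.0 ± 14.4 CPM (ileum) to 224.0 ± 51.3 and 139.3 ± 27.5 CPM (SD, n = 3). Mcm3, of the replicative helicase, rose by 1.68 (SE 0.33) and 1.51 (SE 0.33), and so did Mcm5 of the same helicase, by 1.72 (SE 0.38) and 1.09 (SE 0.38). The cyclin gene Ccna2 rose by 0.93 (SE 0.26) and 0.81 (SE 0.26). The ileal count was 3 without ileum day 0 sample 1 and also 3 without ileum week 4 sample 2.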

How the data were processed

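The authors deposited estimated counts per gene for 48 samples, made with tximport as the file name has it, and a pair of regional tables of scaled signal. The submitters' processing notes name STAR 2.6.1d, Salmon 0.14.2, DESeq2 1.30.1 and the mm10 build. The deposited signal equalled the estimated counts divided by 1 median-of-ratios factor per column, for 20 columns per region. These columns hold neither day 4 nor the day 6 libraries left out here. Estimated counts were whole numbers as deposited.

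Tests used edgeR 4.0.16 under R 4.3.3 (filterByExpr, TMM, robust quasi-likelihood, 16 group means, 46 samples, 30 residual degrees of freedom), with Benjamini-Hochberg adjustment over 21986 genes and a threshold of 0.05. The SE is the absolute log2 fold change over the root of the F statistic. The members and lists were chosen with earlier results of these data known. Named list genes were the 4 largest changes called in both regions, plus up to 2 called in the other direction. Igf1r, Ghr, Phlda2, E2f3 and Copg2 were named after their values were seen. The 5 likeness genes followed a fixed rank.

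Alternatives were RLE size factors, no filter, a mean count of at least 10, DESeq2 1.42.0, the compared groups alone, all 48 samples, no day 4, a replicate block, each sample left out (keeping the dispersion trend), and limma 3.58.1 on log2 of the deposited signal plus 1 or 0.1. The procedure was tested on simulated data. Gene positions are from GENCODE on GRCm38. Intervals and floors cover counting error only.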

Additional observations from a re-analysis of the deposited data

Results flagged for a closer look

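For 7 members the change with age differed between duodenum and ileum by edgeR's interaction test, which compares all 8 ages at once. The adjusted p was 0.000793 for Cdkn1c, 0.00192 for Igf2r, 0.00502 for Meg3, 0.00563 for Plagl1, 0.00628 for Igf2, 0.00941 for Mest and 0.0236 for Dlk1. Cdkn1c was higher in the ileum at day 4, 6 and 8 and higher in the duodenum at week 4. Igf2r was higher in the ileum from day 2 to week 2 and did not pass the test at week 3 or week 4, whereas Plagl1 passed it at week 3 and week 4 alone. As given above, the calls of Cdkn1c at day 4, 6 and 8 and of Plagl1 at week 3 were each lost without at least 1 sample. The overlap of Pdx1 between the regions limits the week 4 values. Meg3 and Dlk1 had their widest gap at day 6, the age with 2 samples per region. With the left-out day 6 libraries returned under their labels, these adjusted p were 0.0928 for Cdkn1c, 0.263 for Igf2r, 0.359 for Meg3, 0.404 for Igf2, 0.236 for Mest and 0.392 for Dlk1, and Plagl1 alone was called.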

How the results depend on the processing

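Over the member results, 3097 of 3237 alternative values kept direction and side of the threshold, 118 lost the call and 21 gained it. The uncalled ileal difference of Cdkn1c between day 8 and week 2 (0.05) ran from -0.0899 to 0.212 without 1 sample, the single change of direction. Over the 23 counts of calls, 467 of 498 alternatives stayed within 1.5 times the reported count. Week 2 against day 8 was the least settled. In the duodenum 2 members were called, against 4 without day 4, 5 with the compared groups alone and 4 by DESeq2, and 1 to 2 without 1 sample. In the ileum 1 was called, against 0 without the filter, 2 with a mean count of at least 10, 0 with all 48 samples, 4 without day 4, 7 with the compared groups alone, 4 by DESeq2, and 0 to 1 without 1 sample; at an unadjusted p under 0.05 the reported edgeR fit had 6. Week 4 against week 3 in the duodenum went from 5 to 3 with the compared groups alone, and ran from 2 to 5 without 1 sample. With all 48 samples the interaction count went from 7 to 1, the single-age count from 40 to 21, and the duodenal cell division count from 12 to 7 and the ileal one from 5 to 3. The ileal cell division count was also 9 without day 4, 8 with the compared groups alone, 8 by DESeq2, 10 by limma with either pseudocount, and 3 to 5 without 1 sample. Other imprinted genes called in the ileum went from 18 to 11 with the compared groups alone. With a replicate block for the sample number, Mest lost its call in the ileum between day 8 and week 2, so that count was 0, Grb10 gained one in the interaction (adjusted p = 0.00271) and H19 one in the duodenum from week 2 to week 3 (0.0451; by DESeq2 0.0460). At single ages the block added 6 regional calls and removed 0, all higher in the ileum: H19 at day 6, day 8 and week 2, Grb10 at day 4 and 6, and Plagl1 at day 6. No other call of a member changed with it. The uncalled ileal Igf2r difference from day 0 to day 8 passed the test under the filter on a mean count of 10, without day 4 and by DESeq2 (adjusted p = 0.0300, 0.0137 and 0.0352), and the duodenal Meg3 difference from week 3 to week 4 without day 4 (0.0476). The labels do not say that same-numbered samples share an animal. Over 23 duodenum and ileum pairs their deviations correlated at 0.155 on average (range -0.363 to 0.672), with 16 over 0.1 and 17 nearest their own number. Pairs of the same age with different numbers averaged -0.079. The reported regional and interaction tests did not pair samples by number. Low counts limit Dlk1 at all ages and H19, Mest and Plagl1 at week 4. The cause of these differences was not tested.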
